A study of Mus musculus with 36 samples.

Results

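Microglia sorted from the forebrain of MSA mice were compared with microglia sorted from control mice, with 3 libraries per group and 6 of the 36 libraries of the series. The members were chosen by their labels alone: the libraries in the table of counts that carry the group MSA or Control and the line name MBP29. Of the 24940 genes in the table, 11810 had enough counts to be tested, and the description covers all of them. MSA stands for multiple system atrophy, a neurodegenerative disease in which protein aggregates collect in oligodendrocytes. The line, MBP29-hα-syn, models it with a transgene under the promoter of myelin basic protein, which is active in oligodendrocytes.

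All 6 libraries came from male mice of 16 weeks that received no treatment. The cells were sorted as CD11b+ CD45low per the protocol, while the sample labels read CD11B+CD45+. The MSA libraries carry the tag MBP29_homo and the control libraries the tag MBP29_het, whereas in the protocol the controls are wild-type mice. On the tags, both groups would carry the transgene and differ in its dose, and the labels do not settle which reading holds. No label says whether a library came from 1 animal or from a pool, so the p-values cover only the spread among the 6 libraries, which may be technical.

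Microglia are the resident macrophages of the brain. In healthy tissue they express a homeostatic set of genes, among them Csf1r, the receptor on which they depend for survival, P2ry12, a purine receptor, and Tmem119. Around plaques, dying cells or damaged myelin, microglia are known to take up a disease-associated profile, with lipid, phagocytic and lysosomal genes such as Apoe, Axl, Clec7a and Lpl.

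Between 5951129 and 12110865 counts were assigned to genes per library, which was 72.3 to 74.7% of the totals in the file header. Pairs of libraries within a group differed beyond sampling noise (chi-square divided by its degrees of freedom, 4.98 to 9.39), so each counts as a library of its own. On the first principal component, with 34.5% of the variance, the control libraries lay at -4.14, -21.1 and -25.7 and the MSA libraries at 9.97, 14.8 and 26.2, and the groups did not overlap. Control 1 lay nearest to the MSA libraries. The labelled cell type matched its markers: homeostatic microglia genes summed to 94000 to 98400 CPM (counts scaled to 1e+06 per library) in control and 88200 to 92800 in MSA libraries, against 1360 to 1630 CPM in untreated control cortex. Neuronal markers summed to 10.9 to 27.9 CPM over the 6 libraries, against 8460 to 16800 CPM in that cortex, and astrocyte markers to 191 to 244 against 4750 to 8800 CPM. The oligodendrocyte list stood nearer to cortex, at 2070 to 2660 against 3010 to 4510 CPM, and so did the endothelial and mural list, at 429 to 494 against 552 to 674 CPM. Most of the first sum came from Trf, transferrin (1588 to 1817 CPM), and Enpp2, autotaxin (289 to 787 CPM). Most of the second came from Bsg, basigin (374 to 428 CPM).

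Few genes passed the test. Of 11810 genes tested, 72 passed an adjusted p of 0.05 (0.61%), 50 of them higher in MSA microglia (0.423%) and 22 lower (0.186%), by edgeR's quasi-likelihood test with Benjamini-Hochberg adjustment. The genes that rose and those that fell differed in size: 36 of the 50 that rose did so by 2-fold or more, whereas 16 of the 22 that fell did so by less than 2-fold. Those changed by less than 2-fold numbered 30, 14 higher and 16 lower, and the smallest of these changes was 0.331 on the log2 scale. Their counts were high, with a median of 6.4 log2 CPM, against 2.7 for the genes changed by 2-fold or more and 4.85 for all tested genes.

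**Figure D1:**
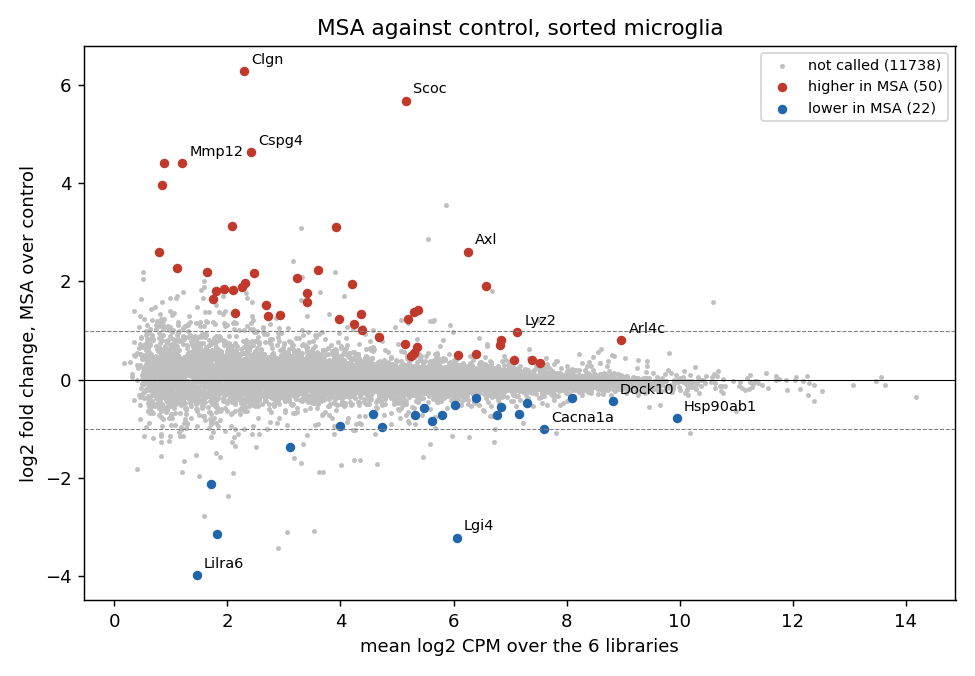
Each point is 1 of the 11810 tested genes, with the mean log2 CPM over the 6 libraries on the x axis and the log2 fold change of MSA over control on the y axis. Red points are the 50 genes that passed the test as higher and blue points the 22 that passed as lower, and dashed lines mark a 2-fold change.

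Most of the transcriptome lay close to the control level. Log2 differences under 0.322 in size were measured for 84.9% of genes, of which 0 passed the adjusted test in edgeR, while 228 were higher and 390 lower at an unadjusted p under 0.05. The median log2 change over all genes was 0.0051, with quartiles at -0.0964 and 0.124. At an unadjusted p under 0.05 stood 1266 genes (10.7%), 649 higher and 617 lower, and 152 genes passed an adjusted p of 0.10. The CPM ranges of the groups did not overlap for 931 genes that were higher (7.88%) and 1068 that were lower (9.04%). That split depended on scaling, since CPM without the TMM factor gave 1466 higher and 599 lower.

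The number of calls also depended on single libraries. Without control 1, the control nearest to the MSA group, 170 genes passed, without control 2 46, without control 3 31 and without MSA 2 33. Of the 72 genes, 24 passed in every alternative that tested them, and all 72 kept their direction wherever they were tested. With no low-count filter 254 genes passed and with DESeq2 173.

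Of the genes of the disease-associated profile, 6 rose in MSA microglia and most of the others had a positive difference. Of 26 tested members of the list 6 rose (23.1%, against 0.423% of all genes called higher) and 0 fell. A positive difference was measured for 25, and the median was 0.89, against 0.0051 over all genes. That median was 0.508 with a minimum count of 30 and 0.572 without MSA 3. Earlier results of these data were known when the list was chosen, so its direction is a description. The groups did not overlap for 17 members, all of them higher, where 7.88% of all genes were higher without overlap.

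Axl, a receptor tyrosine kinase that binds phosphatidylserine on dying cells through a bridging ligand, was measured at 23.2, 20.5 and 21.1 CPM in the control libraries and at 102, 134 and 156 CPM in the MSA libraries. All MSA libraries lay far above all controls, a log2 change of 2.61 ± 0.16 (SE, adjusted p = 0.000472). Clec7a, a lectin receptor for β-glucans, stood at 24.4, 25.4 and 18.3 CPM in control and 55.7, 69.5 and 52.9 CPM in MSA. It rose by 1.41 ± 0.15 (adjusted p = 0.00311), again without overlap. Cybb, the catalytic subunit of the phagocyte NADPH oxidase, was at 11.6 ± 1.06 CPM in control and 29.1 ± 5.78 CPM in MSA (SD, n = 3 each) and rose by 1.34 ± 0.16 by the same test across all genes in edgeR.

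The other called members of the list were a pair of surface receptors and a lectin. Lilrb4a, an inhibitory receptor of the leukocyte immunoglobulin-like family, went from 4.84 ± 1.33 to 16.3 ± 3.78 CPM. Itgax, which encodes the integrin CD11c, went from 21.6 ± 5.47 to 51.2 ± 4.12 CPM. Lgals3, the galactose-binding lectin galectin-3, went from 3.50 ± 1.69 to 15.1 ± 2.74 CPM. These calls were less stable than those of Axl, Clec7a and Cybb, which passed in every alternative. Lilrb4a missed the threshold without control 3 (adjusted p = 0.0614 in edgeR), Itgax without MSA 2 or MSA 3 (up to 0.068) and Lgals3 without control 2, MSA 2 or MSA 3 (up to 0.143).

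Several of the best known members had large differences and did not pass. Apoe, the lipid carrier, was measured at 580, 1012 and 738 CPM in control and 2317, 2407 and 2168 CPM in MSA. Its groups were far apart, yet with a log2 difference of 1.57 ± 0.21 its adjusted p in edgeR was 0.0593. Lpl, lipoprotein lipase, had 17.5, 9.32 and 7.86 CPM in control and 96.9, 85.8 and 63.3 CPM in MSA, with the same adjusted p of 0.0593 in edgeR. Spp1, osteopontin, was at 1.63, 1.37 and 3.04 CPM against 9.16, 16.8 and 28.3 CPM (adjusted p = 0.102 in edgeR), the widest relative spread of the genes plotted. Csf1, a ligand of Csf1r, stood at 22.7 ± 4.63 and 50.7 ± 10.1 CPM (adjusted p = 0.0593 in edgeR). The lysosomal protease gene Ctsd, the member of highest level per length, differed by 0.06.

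**Figure D2:**
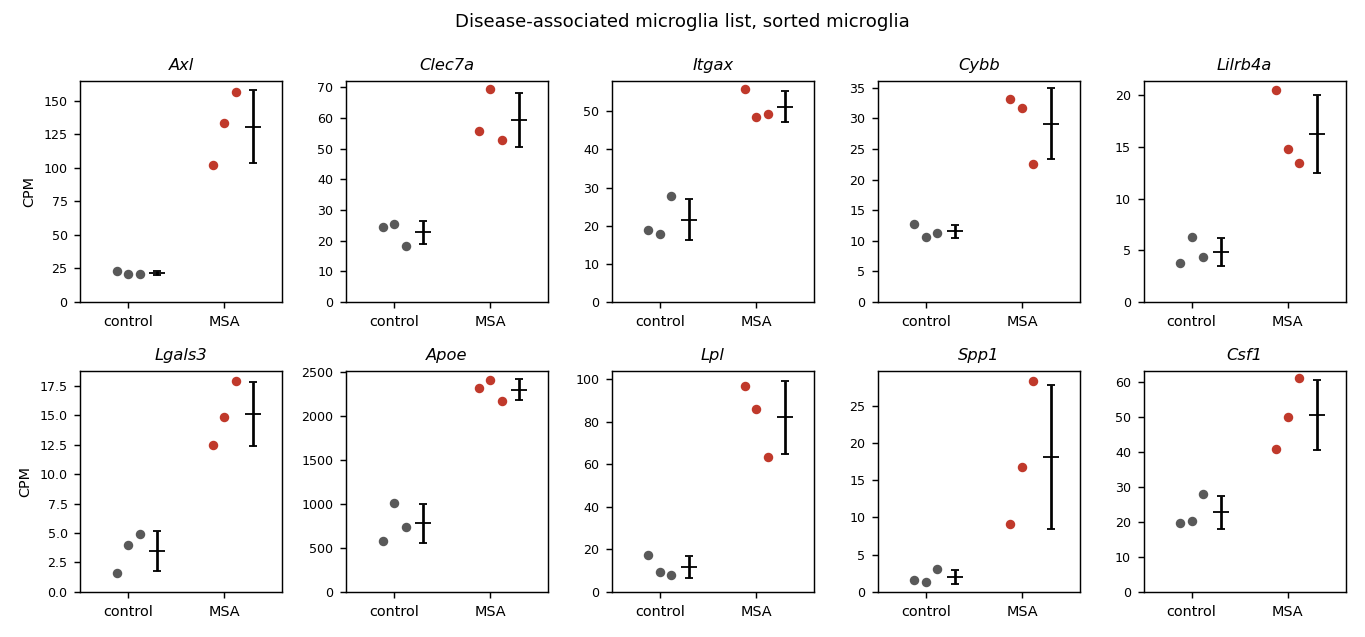
CPM of 10 genes of the disease-associated list in each library (points), with the mean and SD of each group of 3 beside them; all y axes are linear and start at 0. For every gene shown the MSA libraries lie above all control libraries, and Apoe, Lpl, Spp1 and Csf1 did not pass the adjusted test.

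The genes that define homeostatic microglia had small differences, most of them negative, and none passed in edgeR. Of 30 members tested, 0 were called, 21 had a negative difference and the median was -0.0894. The bin of all genes with the highest levels had a median of -0.0433. At an unadjusted p under 0.05 in edgeR, 7 members were lower and 0 higher, where 617 of all 11810 genes were lower and 649 higher. The groups did not overlap for 10 members that were lower and 0 that were higher, where 9.04% of all genes were lower without overlap. CPM without the TMM factor left 5 lower and 2 higher. Csf1r stood at 13209 ± 374 and 12160 ± 661 CPM, and P2ry12 at 5500 ± 251 and 5089 ± 235 CPM. Tmem119 was at 3817, 4134 and 4265 CPM in control and 3732, 3590 and 3236 CPM in MSA, with no overlap and a difference of -0.20 ± 0.07 (adjusted p = 0.322 in edgeR). Sparc, a secreted matrix protein, differed by -0.31 ± 0.08 (adjusted p = 0.142 in edgeR). A pair of members varied widely inside the groups: Slc2a5, a fructose transporter, was at 469, 29.5 and 487 CPM in control and 29.9, 436 and 468 CPM in MSA, and Fcrls at 1624, 1032 and 2074 CPM against 1270, 443 and 501 CPM.

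Of the tested genes in the marker lists of other cells, 1 passed, Flt1. The border-associated macrophage list (12 tested) had a median of 0.41, with 10 positive members, and the monocyte and neutrophil list (13 tested) one of 0.57, with 9. Each had 0 members called in edgeR. At an unadjusted p under 0.05 in edgeR, 3 border-associated genes and 0 monocyte and neutrophil genes were higher, and 0 of either list were lower. Of all 11810 genes, 649 were higher and 617 lower at that p. In the border-associated list the groups did not overlap for 3 members that were higher and 1 that was lower. Of all genes 7.88% were higher and 9.04% lower without overlap. The SD of each list's median between replicates was 0.482 and 0.525, and the summed CPM of the groups overlapped for both lists (885 to 934 against 757 to 959 CPM, and 1070 to 1190 against 1150 to 1260 CPM). Most of the border-associated sum came from Stab1, at 838 ± 21.6 CPM in control and 756 ± 84.8 CPM in MSA, the 1 member lower without overlap. Most of the other sum came from Csf3r, at 1070 ± 63.0 and 1063 ± 64.3 CPM. The sums therefore say little about the other members. Lymphocyte markers summed to 96.6 to 141 CPM in control and 59 to 124 CPM in MSA libraries, with Cd3g, Cd8a, Nkg7, Gzma and Gzmb at 0 in all 6. Astrocyte and neuron lists had medians of -0.26 and -0.40 over 6 and 3 tested genes, with 0 called. Of 8 oligodendrocyte genes tested 0 were called and the median was -0.0321. Mbp, the gene whose promoter drives the transgene, was at 47.0, 10.9 and 26.4 CPM in control and 6.39, 10.9 and 9.39 CPM in MSA. Its controls spread widely and the gene did not pass (adjusted p = 0.472 in edgeR). In the endothelial and mural list 1 of 6 tested genes rose (16.7%, against 0.423% of all genes called higher). Of its members 4 had a negative difference, and the median was -0.19. The groups did not overlap for 1 member that was higher and 1 that was lower. Flt1, a receptor for vascular endothelial growth factor, rose from 0.862 ± 0.443 to 7.47 ± 0.267 CPM. In that list Cldn5, Ly6c1 and Myl9 were at 0 in all 6 libraries, and Pecam1, an adhesion molecule that leukocytes also carry, was at 41.6 ± 13.6 CPM in control and 31.9 ± 7.56 CPM in MSA.

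Of the heat shock system, 3 cytosolic chaperone genes fell: Hsp90ab1, Hsp90aa1 and Hspa1a. These proteins fold and stabilise client proteins: HSP90 works with HSP70, with scaffold proteins that pass clients between them and with co-chaperones that set its ATPase cycle. Of 23 tested members of the heat shock and unfolded protein list 3 fell (13%, against 0.186% of all genes called lower) and 0 rose, 21 had a negative difference and the median was -0.26. The groups did not overlap for 15 members that were lower and 1 that was higher, where 9.04% of all genes were lower and 7.88% higher without overlap. CPM without the TMM factor left 11 lower and 1 higher.

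Hsp90ab1, the constitutive HSP90, had the highest level per length of the 3 (707 deposited TPM in control microglia) and was measured at 1120, 1282 and 1360 CPM in control and 689, 751 and 722 CPM in MSA. All MSA libraries lay below all controls and the gene fell by 0.79 ± 0.08 (adjusted p = 0.00107 in edgeR), a call kept in every alternative. Hsp90aa1, the inducible HSP90, was at 58.2, 61.7 and 66.9 CPM in control and 28.7, 38.7 and 36.4 CPM in MSA. It fell by 0.84 ± 0.11 (adjusted p = 0.00714 in edgeR) and missed the threshold without control 3 (adjusted p = 0.0559). Hspa1a, an inducible HSP70, fell by 2.13 ± 0.35, from 4.73 ± 1.45 to 1.05 ± 0.259 CPM. It shares long identical stretches with Hspa1b, at 13.8 ± 4.07 and 1.57 ± 1.13 CPM, so the split of reads between them is uncertain. Hspa1b did not pass (adjusted p = 0.0698 in edgeR).

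The co-chaperones of HSP90 named here are outside the list and were picked, after their values were seen, among the genes called lower. Their direction was fixed by that choice, and co-chaperones that were not called were not counted. Stip1, the scaffold between HSP70 and HSP90, fell by 0.71 ± 0.11, from 136 ± 16.5 to 82.3 ± 8.93 CPM. Fkbp4, an immunophilin that binds HSP90 and steroid receptors, fell by 0.57 ± 0.10, from 137 ± 17.7 to 91.9 ± 7.36 CPM. Ahsa1, the activator of the HSP90 ATPase, fell by 0.51 ± 0.08, from 76.4 ± 7.51 to 53.3 ± 0.697 CPM. The calls of Fkbp4, Ahsa1 and Hspa1a were each lost without any of control 2, control 3, MSA 1, MSA 2 or MSA 3 (adjusted p up to 0.184, 0.124 and 0.0912 in edgeR), and that of Stip1 without control 2, control 3 or MSA 3 (up to 0.104).

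Chaperones of the endoplasmic reticulum differed by less. Hspa5, the chaperone BiP, differed by -0.26 ± 0.07, Hsp90b1 by -0.20 ± 0.06 and Calr by -0.20 ± 0.07, with adjusted p of 0.163, 0.269 and 0.312 in edgeR. Hsph1, an exchange factor of HSP70, was at 71.9, 100.0 and 85.7 CPM in control and 29.3, 43.9 and 41.4 CPM in MSA (adjusted p = 0.0593 in edgeR). Hspa8, the constitutive HSP70, was at 82.8, 258 and 404 CPM in control and 208, 185 and 167 CPM in MSA, so its controls spanned the MSA range. Immediate early genes, which are known to respond when cells are handled, had 26 members tested, 0 called and a median of 0.07; the part of handling in the chaperone values was not tested.

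Heat shock genes are known to be switched on through the heat shock element, repeats of the unit GAA in alternating orientation. Its 2-unit form was sought as GAANNTTC and as TTCNNGAA, each of which reads the same on both strands, in the 250 bases before each gene's start in RefSeq's promoters (GRCm38.p6). Of the 6 chaperone and co-chaperone genes that fell, 4 had an entry, while Hsp90ab1 and Hsp90aa1 had none. Of the 4, 2 held GAANNTTC, which 7.73% of all 27025 genes with an entry and 6.17% of the tested ones hold. Of the 26 heat shock list genes and co-chaperones with an entry, called or not, 8 held it (30.8%). TTCNNGAA was in 0 of the 4, 3 of those 26 (11.5%) and 8.11% of all genes. Either form was in 2 of the 4, 9 of those 26 (34.6%) and 14.5% of all genes. The 3-unit form GAANNTTCNNGAA, sought on both strands, was in 0 of the 4, 2 of those 26 (7.69%) and 0.514% of all genes. The sites are shown with the motif in capitals, since these are promoters of genes that fell, with that of Hspa1b for comparison.
Hspa1a, chr17:34972242-34972271, minus strand: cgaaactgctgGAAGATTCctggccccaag
Hspa1b, chr17:34959324-34959353, minus strand: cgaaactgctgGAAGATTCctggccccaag
Fkbp4, chr6:128438789-128438818, minus strand: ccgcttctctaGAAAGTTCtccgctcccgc
The windows of Hspa1a and Hspa1b read the same. A match is a description of the letters and no measure of binding.

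**Figure D3:**
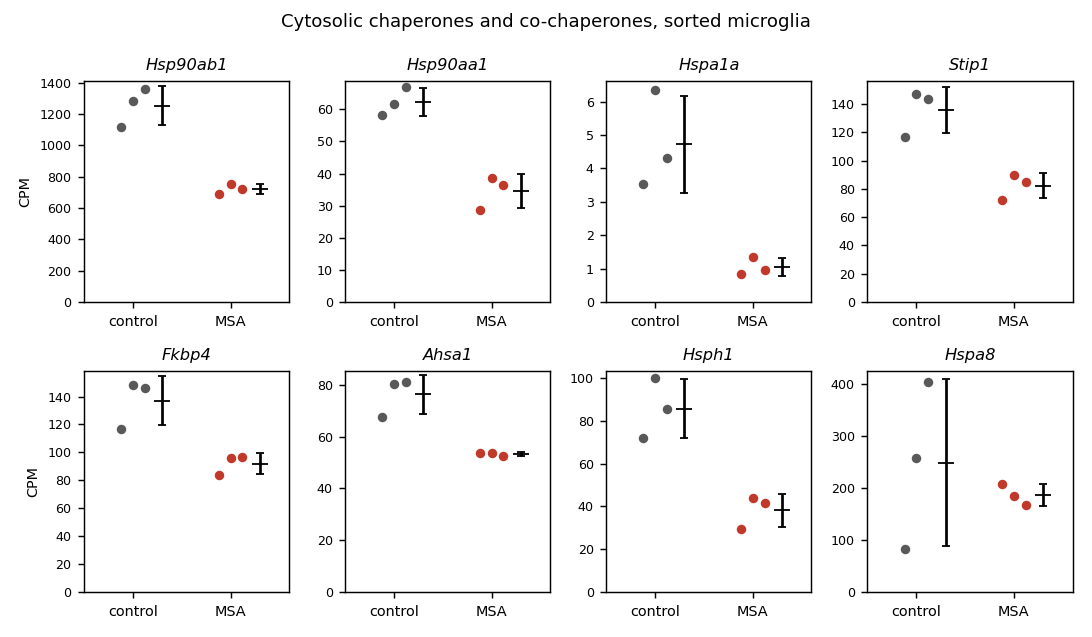
CPM of 8 cytosolic chaperone and co-chaperone genes in each library (points), with the mean and SD of each group of 3; y axes are linear and start at 0. The MSA libraries lie below all controls for each gene except Hspa8, whose controls range from 82.8 to 404 CPM.

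Of the genes of the actin cytoskeleton 1 fell, Dock10. Of 30 members tested (1 called lower is 3.33%, against 0.186% of all genes), 23 had a negative difference and the median was -0.0956, against -0.0433 for the bin of all genes with the highest levels. The groups did not overlap for 14 that were lower and 1 that was higher, where 9.04% of all genes were lower and 7.88% higher without overlap. CPM without the TMM factor left 10 lower and 3 higher. Dock10, a guanine nucleotide exchange factor, fell by 0.44 ± 0.07, from 520 ± 20.7 to 381 ± 34.4 CPM. Its call was lost without control 2, control 3, MSA 2 or MSA 3 (adjusted p up to 0.124 in edgeR). Its relative Dock8 differed by -0.32 ± 0.07 (adjusted p = 0.0858 in edgeR) and β-actin, Actb, by -0.23 ± 0.06 (adjusted p = 0.149 in edgeR). Arhgdib, a GDP dissociation inhibitor that is outside the list, fell by 0.38 ± 0.07, from 309 ± 17.3 to 236 ± 14.6 CPM, a call lost without any 1 of the 6 libraries.

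The other modest changes concerned genes of several kinds. Arl4c, a small GTPase of the ARF family, was at 407, 335 and 356 CPM in control and 642, 608 and 650 CPM in MSA, a rise of 0.80 ± 0.08 (adjusted p = 0.00107 in edgeR). Lyz2, the lysozyme of macrophages, was at 86.3, 111 and 88.5 CPM in control and 181, 196 and 176 CPM in MSA, a rise of 0.96 ± 0.10. For both genes the groups were well apart and the call held in every alternative. C5ar2, a receptor for complement C5a, rose by 0.81 ± 0.11, Siglecf, a receptor for sialic acid, by 0.73 ± 0.10 and Cd83, a marker of activated antigen-presenting cells, by 0.70 ± 0.10. Each of these 3 missed the threshold without MSA 2 (adjusted p up to 0.0892, 0.0629 and 0.0836 over the libraries left out); C5ar2 did so also without control 2 or MSA 3, Siglecf without control 2 and Cd83 without control 3. Slc23a2, a vitamin C transporter, had the smallest called change, 0.33 ± 0.06, from 163 ± 4.21 to 204 ± 4.57 CPM, and lost its call without any of 5 libraries, control 1 excepted.

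On the lower side, Peg10, an imprinted gene derived from a retrotransposon, fell by 0.72 ± 0.07, from 68.5 ± 2.57 to 41.4 ± 1.62 CPM, and Htra3, a secreted serine protease, fell by 0.96 ± 0.12, from 34.5 ± 3.98 to 17.5 ± 1.55 CPM. Both held in every alternative. D2hgdh, a mitochondrial dehydrogenase, fell by 0.70 ± 0.10 and Adgra3, an adhesion G protein-coupled receptor, by 0.57 ± 0.08, both lost without control 3 or MSA 2 (adjusted p up to 0.077 and 0.0852 in edgeR). Mmp2, a matrix metalloprotease, fell by 0.69 ± 0.11, from 177 ± 15.1 to 109 ± 15.7 CPM, a call lost without any of control 1, control 2, control 3 or MSA 2 (adjusted p up to 0.126 in edgeR).

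Most pathways of microglial function stayed near the median of all genes. Of 802 listed genes tested, 10 were called higher and 4 lower, and 58 of the 72 called genes were in none of the 38 lists. Lysosomal genes (37 tested) had a median of 0.05, V-ATPase subunits (17) 0.0044, autophagy genes (28) 0.02, ribosomal proteins (50) 0.03, oxidative phosphorylation (42) -0.0131, proteasome (28) -0.0561, mRNA splicing (32) 0.02 and Toll-like receptors with their adaptors (24) -0.00968, each with 0 members called. The lysosomal median was small but above the SD of that list's median between replicates (0.0169). In that list the groups did not overlap for 9 members that were higher and 2 that were lower. Of all genes 7.88% were higher and 9.04% lower without overlap. CPM without the TMM factor gave 14 higher and 1 lower lysosomal genes. Interferon response genes (34 tested) had 0 called, 29 with a positive difference and a median of 0.34, which is less than the SD of the list's median between replicates (0.391). Cholesterol synthesis (22 tested) had 17 positive members, 0 called and a median of 0.16.

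The other calls among listed genes were in lists of receptors and immune genes, and 0.423% of all genes were called higher. Of the phagocytic and Fc receptors (31 tested, median 0.00281) 3 rose (9.68%): Axl, Clec7a and Cd22, a receptor for sialic acid, which went from 12.0 ± 2.45 to 25.7 ± 3.87 CPM. Of the integrins and adhesion genes (26 tested, median 0.00612) 2 rose (7.69%), Itgax and the hyaluronan receptor Cd44, the latter from 4.34 ± 0.234 to 10.7 ± 2.58 CPM. The calls of Cd22 and Cd44 were lost without control 2, control 3, MSA 2 or MSA 3 (adjusted p up to 0.0988 and 0.139 in edgeR). Of the complement genes (14 tested, median 0.07) 2 rose (14.3%), Itgax and C5ar2, and of the NADPH oxidase and oxidative stress genes (21 tested, median -0.00932) 1 (4.76%), Cybb. Axl, Clec7a, Itgax and Cybb are also members of the disease-associated list. No member was called in the lists of MHC class I (median 0.08) or class II presentation (0.00833), chemokines and receptors (0.09), inflammatory cytokines and inflammasome (0.03), iron and haem (-0.00599), glycolysis (0.04), TGF-beta pathway (0.00118), myeloid transcription factors (-0.0309), cell cycle (0.14), purinergic receptors and ion channels (-0.0409) or chromatin regulators (-0.0427). Of the 18 tested chemokine genes, 5 were higher and 2 lower at an unadjusted p under 0.05 in edgeR. Of the 22 tested inflammatory cytokine genes, 4 were higher and 2 lower. Of all 11810 genes, 649 were higher and 617 lower at that p.

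**Figure D4:**
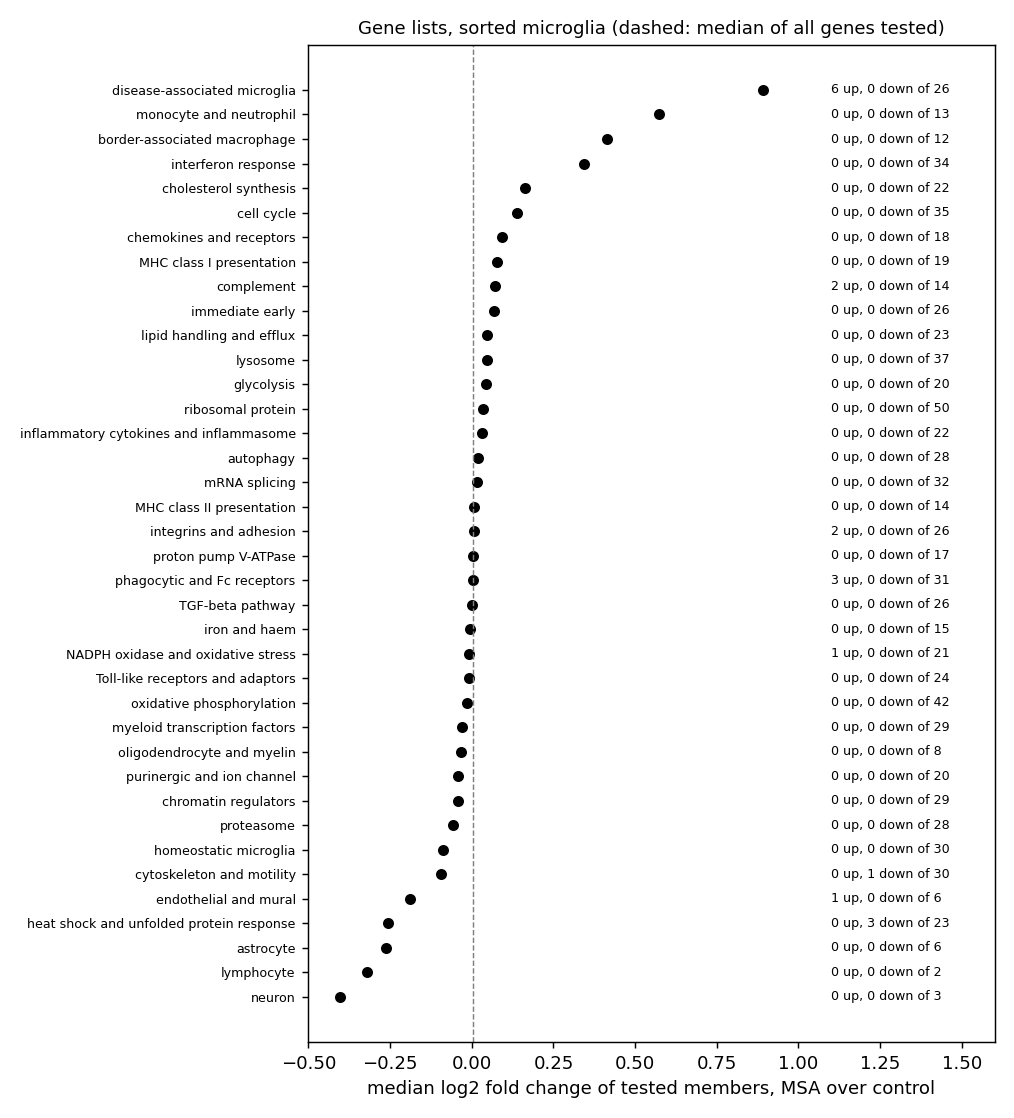
Median log2 fold change of MSA over control for the tested members of each of the 38 lists, with the number called higher and lower at the right; the dashed line is the median of all 11810 genes. The disease-associated list has the highest median, and the lists with the lowest medians, neuron and lymphocyte, rest on 3 and 2 tested genes.

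The lipid handling list (23 tested) had a median of 0.0475, with 15 positive and 8 negative members and 0 called. The groups did not overlap for 7 members that were higher and 1 that was lower. Of all genes 7.88% were higher and 9.04% lower without overlap. Among the members Abca1 and Abcg1, which export cholesterol, differed by 0.40 ± 0.08 and 0.52 ± 0.10 and did not pass (adjusted p = 0.0604 and 0.0593 in edgeR). Abca1 was at 525, 552 and 514 CPM in control and 638, 674 and 781 CPM in MSA. Abcg1 was at 288, 230 and 221 CPM in control and 364, 333 and 353 CPM in MSA. The groups did not overlap for either gene. Nceh1, a hydrolase of cholesterol esters outside the list, rose by 1.37 ± 0.12, from 22.1 ± 3.57 to 57.1 ± 3.90 CPM (adjusted p = 0.000437 in edgeR), and held in every alternative.

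The largest changes were in genes with low levels in 1 group. Scoc, which encodes a coiled-coil protein of the Golgi, was at 0.814, 1.86 and 1.35 CPM in control and 68.9, 68.1 and 73.7 CPM in MSA. The groups were far apart, a log2 rise of 5.69 ± 0.16 (adjusted p = 5.38e-08 in edgeR). Clgn, a chaperone of the endoplasmic reticulum known from the testis, had 3 counts in all controls together and 219 in MSA, a ratio of 92.1 (95% counting interval 31.1 to 450). Rnf150, a RING finger gene, went from 3.12 ± 0.623 to 27.3 ± 4.47 CPM and Cspg4, the proteoglycan NG2, from 0.388 ± 0.130 to 10.3 ± 0.650 CPM. Pdcd1, which encodes the receptor PD-1, went from 4.33 ± 1.26 to 20.1 ± 2.77 CPM and Inf2, a formin, from 1.97 ± 0.182 to 8.92 ± 0.975 CPM. All 6 held in every alternative.

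Lgi4, a secreted protein known from peripheral myelination, was at 122, 115 and 120 CPM in control and 12.4, 15.9 and 9.23 CPM in MSA, a log2 fall by 3.22 ± 0.15 (adjusted p = 2.52e-05 in edgeR). Its neighbour Fxyd3, on the other strand of chromosome 7, fell by 3.14 ± 0.35. Lgi4 (31059935 to 31070935) and Fxyd3 (31070535 to 31076697) overlap in the deposited mm10 coordinates, and no source used here states strand-specific counting, so reads in the overlap could belong to either gene. Cacna1a, the pore subunit of a calcium channel, fell from 258 ± 4.36 to 128 ± 3.99 CPM, by 1.01 ± 0.06.

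Over the genome 0.61% of tested genes were called, and the share by chromosome was not tested. Chromosome 8 had 10 of 656 tested genes called (1.52%), chromosome 7 13 of 929 (1.4%) and chromosome 1 8 of 682 (1.17%), while chromosome 15 had 1 of 470 (0.213%) and chromosome 19 1 of 433 (0.231%). In the 10 Mb window from 80 to 90 Mb of chromosome 8, 7 of 82 tested genes were called (8.54%): Scoc, Clgn, Rnf150, Elmod2, Tbc1d9 and Prdx2 rose and Cacna1a fell. Of these, Rnf150, Tbc1d9, Elmod2, Clgn and Scoc lie between 82863356 and 83442662 in the deposited mm10 coordinates. Cacna1a and Prdx2 lie beyond that stretch, from 84415364 and 84969622. Tbc1d9 rose by 0.41 ± 0.06 and Elmod2 by 0.66 ± 0.10, each lost without control 2, control 3 or MSA 2 (adjusted p up to 0.0945 and 0.0807 in edgeR). From 0 to 10 Mb of chromosome 7, 4 of 61 were called, among them Pirb and Lilra6 of the paired immunoglobulin-like receptor family. With tested genes split into 5 bins by mean level, the lowest bin had a median log2 change of 0.10 and the highest -0.0433, while medians over 5 bins of transcript length lay between -0.00537 and 0.02.

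A gene was counted as lost where the control mean was at least 1 CPM and the MSA libraries together held at most 3 counts, and as gained in the opposite case. Lost genes numbered 7 and gained genes 6. Rhox5, a homeobox gene of the X chromosome, and Afm, which encodes the vitamin E carrier afamin, had 28 counts each in control and 0 in MSA, at least 7.4-fold lower against a floor of 3 counts over the group. The control mean of Rhox5 was 1.26 CPM, which 28 counts reach only with nearly all of them in control 1. Its loss therefore rests largely on 1 control library. Clec2h, a C-type lectin, had 37 and 1 counts. The other lost genes are near-identical copies in the paired immunoglobulin-like receptor family. Pira2 had 43 and 1 counts, and Pira1, Pira11 and Gm14548 had the same 32 and 2 counts, so their reads are shared and the split between them is uncertain.

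Among the gained genes, Trpc4, a cation channel, had 0 and 23 counts, at least 9.67-fold higher. Itgae, the integrin CD103, had 2 and 27 counts (ratio 17, 95% counting interval 4.28 to 148), Chst3, a chondroitin sulfotransferase, 3 and 28, and the serotonin receptor gene Htr2b 1 and 23. Apart from Clgn, the lost and gained genes were too low to be among the genes tested. The number of these genes, 13 in all, was 25 without control 1 and 20 without MSA 2. The limit of 3 counts was kept with 1 library fewer in a group and is then easier to meet. These higher numbers are therefore no measure of dependence on single libraries.

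The genotype change in microglia was compared with that in untreated cortex, with 3 libraries from male MSA mice and 3 from male control mice on standard chow, in 1 model with an interaction term over 12 libraries. For the cortex mice the sample records give the week the diet began and its length, but no age. If that week is a week of age, the diet would have ended at the age of the microglia mice. Whether the cortex was taken at that point is not stated. Bulk cortex holds few microglia, and in it fewer cells of a type and less RNA per cell cannot be told apart. Of 14946 genes tested 7 differed between the 2 kinds of sample (0.0468%), 6 with a higher and 1, Lgi4, with a lower change in microglia than in cortex. The 6 were Scoc, Clgn, Axl, Cspg4, Rnf150 and Alcam, an adhesion molecule. In cortex Scoc was at 18.6, 25.1 and 35.1 CPM in control and 14.3, 29.1 and 24.9 CPM in MSA, overlapping groups, and Axl was at 81.3, 97.0 and 56.5 CPM in control and 73.3, 87.2 and 74.0 CPM in MSA. In cortex alone 0 genes passed in edgeR, with 1552 at an unadjusted p under 0.05. Control cortex 3 stood apart, with neuronal markers at 8460 CPM against 15700 and 16800 CPM in the other controls and 14800 to 16300 CPM in MSA cortex, and astrocyte markers at 4750 against 8320 and 8800 CPM. Without it 0 genes passed in cortex, with 911 at an unadjusted p under 0.05, and without control cortex 1 10 genes passed, with 4073 at that p, in fits chosen after seeing the data. The count of 7 was 3 without control microglia 2, MSA cortex 2 or MSA cortex 3, and 13 without control cortex 3. For the other 65 genes called in microglia no difference from cortex was shown, which does not show that they changed alike.

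**Figure D5:**
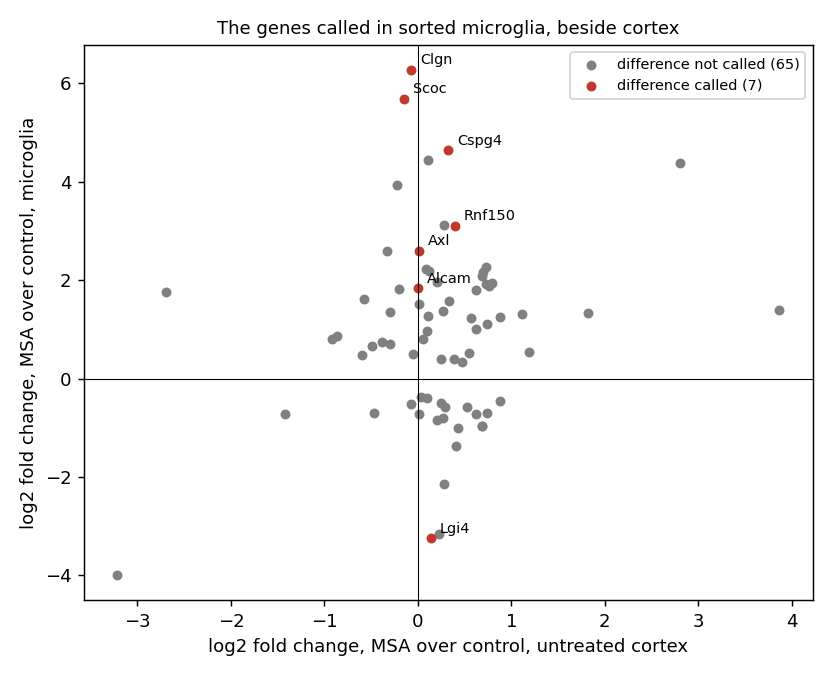
The 72 genes called in sorted microglia, with the log2 fold change of MSA over control in untreated cortex on the x axis and in microglia on the y axis. Red points are the 7 genes whose changes differed by the interaction test; the 6 higher ones lie within 0.395 of 0 in cortex. Fitted values of genes at or near 0 counts in a group are no measure of size.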

How the data were processed

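Poly(A) RNA-seq of 6 libraries of sorted microglia was analysed. The submitters' processing notes name STAR, HOMER, DESeq2 and mm10, without versions, and strandedness is not given in the sources used. Counts deposited by the authors are raw whole numbers for 24940 genes, each tied to 1 RefSeq transcript. A deposited TPM table, which the authors made per the file headers from the same genes, served only to compare levels between genes. Libraries were grouped by their group tag and title.

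edgeR 4.0.16 (R 4.3.3) filtered genes by filterByExpr at a minimum count of 10, applied TMM scaling and fitted its robust quasi-likelihood model on these 6 libraries. The tests are 2-sided with Benjamini-Hochberg adjustment over all 11810 genes, and a call needs an adjusted p under 0.05. Levels are TMM-scaled CPM with SD over 3 libraries, and marker sums and cortex values are CPM of the library total. Changes are log2 with the standard error of the fit. Intervals and floors cover counting error only. With 3 against 3 libraries an exact permutation test cannot go below 0.1, so single values were not permuted.

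Genes are named by a rule: Csf1r, P2ry12, Tmem119 and Mbp always; the 8 higher and 8 lower called genes of largest change whose groups did not overlap, from a mean log2 CPM of 2 up; the 10 higher and 10 lower of smallest p changed by less than 2-fold, from a mean log2 CPM of 4 up; up to 8 lost and 8 gained genes; and per list up to 4 called members of smallest p and the 2 of highest CPM. Other genes named were chosen after their values were seen, as were the co-chaperones and the motifs. Clone-type symbols were counted but not named, apart from 1 copy of a receptor family, and some results are left out here. The comparison and the 38 lists were chosen with earlier results of these data known. Lists are described by counts and medians, with no test.

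The test was run on simulated counts for these 11810 genes, with 200 changed in each of 5 runs. It recovered 34.9% of genes changed by 0.5 on the log2 scale, 78.8% of those changed by 1 and 89.1% of those changed by 2. Of its calls 11.8% were unchanged genes with gene-specific dispersions, above the 5% aimed for, and 5.35% with dispersions from the trend. Alternatives were RLE and upper quartile scaling, DESeq2 1.42.0, limma-voom (limma 3.58.1), no filter, a minimum count of 30, the replicate number as a block and each library left out; a fit without robust estimation was chosen after seeing the data.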

Additional observations from a re-analysis of the deposited data

Results flagged for a closer look

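The genotype change differed between sorted microglia and untreated cortex by the interaction term of edgeR's quasi-likelihood test for 7 of 14946 genes. The change in microglia exceeded that in cortex by 5.83 on the log2 scale for Scoc, 6.35 for Clgn, 2.59 for Axl, 4.32 for Cspg4, 2.72 for Rnf150 and 1.83 for Alcam. For Lgi4 the difference was -3.38. In cortex these genes are measured over all cell types: Lgi4 was at 61.6, 62.5 and 59.9 CPM in control and 66.5, 78.4 and 53.5 CPM in MSA cortex. The cell types behind the cortex levels were not tested.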

How the results depend on the processing

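Leaving out each library in turn gave 31 to 170 called genes, 6 to 94 of them changed by less than 2-fold and 25 to 76 by 2-fold or more. DESeq2 called 173 (103 and 70) and the fit without a low-count filter 254 (167 and 87). The replicate numbers do not pair the libraries (correlations of same-numbered deviations of 0.0323, 0.144 and -0.111), and with the replicate block 91 genes were called, 62 of the 72 among them, with 47 changed by less than 2-fold. RLE and upper quartile scaling gave 72 and 71 calls, limma-voom and a minimum count of 30 gave 61 each, and the fit without robust estimation, chosen after seeing the data, gave 65. The difference from cortex was called for 3 to 13 genes without 1 library, 24 with DESeq2 and 4 with the replicate block within sample type. Lost and gained genes numbered 15 to 25 without 1 library, 50 at a mean of at least 0.5 CPM and 4 where at most 0 counts were allowed. Without 1 library the limit of 3 counts over the group was kept, which is then easier to meet.

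Of 532 list medians under alternatives, 482 moved by less than the SD of the list between replicates and 50 by more; the cause was not tested. With DESeq2 these medians were lymphocyte -0.665, endothelial and mural 0.195, disease-associated microglia 1.13, complement 0.193, lipid handling and efflux 0.237. With no filter these medians were lymphocyte -0.583, endothelial and mural 0.191, disease-associated microglia 1.14, lipid handling and efflux 0.196. With a minimum count of 30 these medians were endothelial and mural 0.0809, disease-associated microglia 0.508, cholesterol synthesis 0.0745, lipid handling and efflux 0.0802. With limma-voom these medians were MHC class II presentation 0.0885. Without 1 library, medians ranged from 0.0559 to 0.162 (MHC class I presentation), -0.00109 to 0.18 (MHC class II presentation), -0.0421 to -0.0106 (NADPH oxidase and oxidative stress), -1.3 to -0.172 (astrocyte), -0.0179 to 0.0588 (autophagy), -0.00324 to 0.215 (chemokines and receptors), 0.0276 to 0.17 (cholesterol synthesis), -0.155 to -0.0747 (cytoskeleton and motility), 0.572 to 0.988 (disease-associated microglia), -0.265 to 0.0509 (endothelial and mural), 0.0034 to 0.0668 (inflammatory cytokines and inflammasome), -0.035 to 0.0843 (iron and haem), 0.0492 to 0.119 (lipid handling and efflux), 0.0222 to 0.0602 (lysosome), -0.027 to 0.0293 (mRNA splicing), -0.049 to -1.33e-05 (myeloid transcription factors), -0.125 to -0.0129 (oligodendrocyte and myelin), -0.0322 to -0.00269 (oxidative phosphorylation), -0.0329 to 0.0534 (phagocytic and Fc receptors). 

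No called gene changed its direction. Genes near 0 that were not called did, ranging without 1 library from -0.0446 to 0.0178 (Atp5b), -0.0444 to 0.18 (B2m), -0.0314 to 0.0851 (C1qb), -0.748 to 0.0672 (Camk2a), -0.0529 to 0.321 (Ccnd3), -0.112 to 0.148 (Cd79b), -0.0496 to 0.0531 (Csf3r), -1.63e-05 to 0.091 (Ddx5), -0.109 to 0.0385 (Fdft1), -0.0856 to 0.0394 (Ftl1), -0.0165 to 0.0379 (Hk2), -0.109 to 0.00965 (Itgb5), -0.0423 to 0.36 (Parp14), -0.0382 to 0.0382 (Psmc3), -0.0468 to 0.0205 (Ptgs1), -0.0881 to 0.0718 (Rpl4), -0.106 to 0.0587 (Rplp1), -0.0379 to 0.0197 (Sirpa), -0.0277 to 0.229 (Slc1a3), -0.474 to 0.262 (Snap25), -0.00249 to 0.091 (Srebf2), -0.0719 to 0.03 (Tcirg1), -0.042 to 0.0403 (Trf), -0.0831 to 0.103 (Trim30a), -0.106 to 0.0777 (Ulk2). Under other settings, Csf3r was 0.000306 (upper quartile scaling); Hk2 was -0.00169 (DESeq2); Hk2 was -0.00522, Trf was -0.00258 (no low-count filter); Cd79b was 0.000889, Csf3r was 0.00521, Psmc3 was 0.00214, Ulk2 was 0.000344 (minimum count 30). Depth limits genes near 1 CPM, which is about 5.95 counts in the shallowest library.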
